A study of Homo sapiens with 6 samples.

Results

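The large subunit of the cytosolic ribosome, the part that joins amino acids into protein, holds ribosomal RNA and a set of small basic proteins. The 45 genes described here were chosen by symbol, from RPL3 to RPL41 together with RPLP0, RPLP1 and RPLP2, out of 61806 genes in the deposited table. The rule uses symbols alone, each symbol had 1 row, and all 45 passed the filter on low counts that left 16834 genes for testing. Messenger RNA was sequenced from 293T cells, a human line derived from embryonic kidney. The 3 GFP-812 libraries came from cells transfected with a plasmid labelled GFP-812, and the 3 GFP libraries came from cells transfected with a plasmid labelled GFP. GFP is a green fluorescent tag. Both groups share the cell line, the culture conditions and the lipid transfection reagent. The labels give neither the time after transfection nor what the name GFP-812 means, and the series title names truncated NEK1 condensates and the making of ribosomal RNA. The comparison asks how the mRNAs of the large-subunit proteins differed between cells given GFP-812 and cells given GFP.

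A ribosome needs 1 copy of nearly every large-subunit protein for each set of ribosomal RNAs, so cells tune these genes together. The proteins are made in the cytoplasm, carried into the nucleolus and built into the subunit while its RNA is cut and folded. Their mRNAs start with a C followed by an unbroken stretch of C and T, the terminal oligopyrimidine or TOP motif, through which the kinase mTOR and the RNA-binding protein LARP1 control their translation and stability. Proteins left without ribosomal RNA are normally degraded, and the pair RPL5 and RPL11 then binds MDM2, the ligase that holds p53 down.

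The DNA at many start sites of these genes holds a run of C and T. RefSeq's table for GRCh38.p14 held 50 start sites of 38 of the 45 genes. The sequences below show 15 bases on each side of the start, with the longest run of C and T that reaches within 5 bases of the start in capitals. They cover each start site that the table holds for 3 sets of genes, namely those with the 8 smallest and the 4 largest p-values in the comparison (RPL23, RPL7 and RPL23A are without an entry), the P stalk, and RPL3, which was added as a gene with a short run.
RPL11, chr1:23691764-23691793, plus strand: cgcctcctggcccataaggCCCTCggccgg
RPL11, chr1:23691791-23691820, plus strand: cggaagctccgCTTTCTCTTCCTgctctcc
RPL35, chr9:124861943-124861972, minus strand: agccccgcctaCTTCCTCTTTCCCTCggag
RPL24, chr3:101686704-101686733, minus strand: ttcccatgaTTCTCTCTTTCTTTTCgccat
RPL31, chr2:101002274-101002303, plus strand: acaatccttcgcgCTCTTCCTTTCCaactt
RPL37A, chr2:216498829-216498858, plus strand: gcaccgcgTCTCTTCCTTTCTgggctcgga
RPL29, chr3:51995881-51995910, minus strand: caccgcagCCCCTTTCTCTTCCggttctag
RPL13, chr16:89560642-89560671, plus strand: ggccctgctatcaTCCCagagtgcattgcg
RPL13, chr16:89560667-89560696, plus strand: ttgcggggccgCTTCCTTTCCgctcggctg
RPL13, chr16:89560696-89560725, plus strand: gttttcctgcgCaggaggtgagggagactg
RPL28, chr19:55385917-55385946, plus strand: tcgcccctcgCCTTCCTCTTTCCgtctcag
RPL17, chr18:49492451-49492480, minus strand: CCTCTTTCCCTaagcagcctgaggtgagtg
RPLP0, chr12:120201097-120201126, minus strand: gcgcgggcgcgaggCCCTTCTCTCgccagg
RPLP1, chr15:69452803-69452832, plus strand: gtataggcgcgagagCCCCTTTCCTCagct
RPLP2, chr11:809952-809981, plus strand: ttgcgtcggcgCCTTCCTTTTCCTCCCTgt
RPL12, chr9:127451392-127451421, minus strand: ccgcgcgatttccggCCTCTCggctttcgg
RPL3, chr22:39319609-39319638, minus strand: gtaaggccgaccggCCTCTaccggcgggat

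A run of at least 6 bases of C or T that reached within 5 bases of the start was present at 34 of the 50 start sites (68.0%), in 32 of the 38 genes. Over all 35116 start sites in the RefSeq table the share was 22.2%. The small-subunit protein genes had it at 24 of 28 start sites (85.7%), and the genes for mitochondrial large-subunit proteins at 8 of 52 (15.4%). A C stood at the start itself in 31 of the 50 sites (62.0%), against 14.7% of all sites. The 6 genes with no run of at least 6 bases were RPL3, RPL4, RPL6, RPL9, RPL15 and RPL27. In RPL3 the run had 5 bases. Among the 4 genes with the largest p-values in the comparison below, RPL29 had a run of 14 bases and RPL28 a run of 13. RPL13 had runs of 4, 10 and 1 bases at its 3 start sites. The run of RPL17 had 16 bases, of which the window shows the last, and it stopped before the start, where an A stood. RPL11 had a run of 12 bases at 1 start site and of 5 at the other. The letters CCGGAAG are part of the site that ETS-family factors bind, and were searched on both strands in the 300 bases around each start. They occurred at 34.0% of the large-subunit sites and 10.3% of all sites. The share was similar at the small-subunit sites (32.1%) and at the mitochondrial large-subunit sites (36.5%). The TATA box letters TATAAA, searched on both strands of the 50 bases before the start, occurred at 4.0% of the large-subunit sites and 3.47% of all sites. These matches describe the letters in these windows and show no binding.

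Each library held 14255148 to 17613814 counts. NEK1, the check of the labels, had 563, 518 and 494 FPKM in the GFP-812 libraries, against 3.82, 3.99 and 3.91 FPKM in the GFP libraries (edgeR log2 fold change 7.08, SE 0.047, adjusted p = 4.5e-70). FPKM is the count divided by exonic size and by the library's total, and values are listed in the order of replicates 1, 2 and 3 throughout. Markers fixed for an epithelial or kidney-derived line reached a mean of 1 FPKM for 5 of 10 genes, among them VIM and KRT18, while EPCAM averaged 0.978 FPKM and CDH1, which defines epithelia, averaged 0.660 FPKM. PAX2, KRT19 and PAX8 averaged 0.508, 0.180 and 0.0217 FPKM. The sum of that list was 155 to 161 FPKM in the GFP-812 libraries and 149.9 to 162 FPKM in the GFP libraries. VIM alone had 118, 122 and 119 FPKM in the GFP-812 libraries and 115, 115 and 127 FPKM in the GFP libraries. The sum therefore says little about the other genes of the list. Markers of mature kidney reached that level for 1 of 9 genes, with UMOD at 0 and sums of 2.15 to 2.45 FPKM in the GFP-812 libraries and 1.99 to 2.33 FPKM in the GFP libraries. Markers of blood, endothelium and fibroblasts did so for 2 of 13 genes, with PTPRC and HBB at 0. Their sums were 4.92 to 5.10 FPKM in the GFP-812 libraries and 3.10 to 4.58 FPKM in the GFP libraries, and their part in the results was not tested. In bulk RNA, fewer cells of a kind and less RNA per cell cannot be told apart.

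A single library, GFP replicate 3, stood apart for these genes. It was the highest of the GFP libraries for 45 of the 45 genes, while it was the highest for 33.1% of all genes tested. Relative to the mean of the 3 GFP libraries, the median of the 45 genes was 0.11, 0.12 and 0.11 log2 units in the GFP-812 libraries and -0.023, -0.075 and 0.10 log2 units in the GFP libraries. GFP replicate 3 lay beside the GFP-812 libraries and away from its own group, and it was at or above the lowest GFP-812 library for 30 of the 45 genes. Within each library the 45 genes lay close together, scattered around their library's median with an SD of 0.040 to 0.044 log2 units in the GFP-812 libraries and 0.027 to 0.029 in the GFP libraries. Each gene was set relative to its own mean over the GFP libraries, which narrows the scatter in those libraries. The SDs therefore cannot be compared between the groups. The labels give no batch or date for the libraries. The SD within groups of the set's median, pooled over both groups, was 0.064 log2 units, and the spread lay mainly among the GFP libraries. Results are therefore given with and without GFP replicate 3 where it changes them. It was the highest GFP library for all 45 genes, so leaving it out lowers the GFP mean of each by construction. A call gained in that fit is no independent support.

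**Figure D1:**
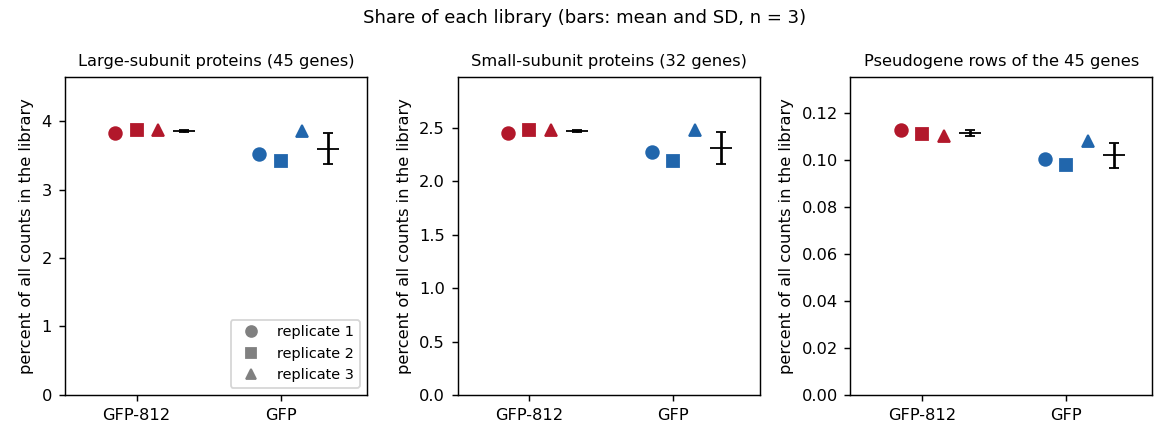
Share of all counts in each library (y axis, percent) taken by the 45 large-subunit genes, by 32 small-subunit genes and by pseudogene rows of the 45 genes, with 1 point per library, GFP-812 left and GFP right, and the mean with SD of 3 libraries beside them. GFP replicate 3 sits with the GFP-812 libraries for the first 2 panels, at 3.86% and 2.48%.

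The mRNAs of the large subunit had a higher mean share of the library in GFP-812 cells, with overlapping groups. The 45 genes took 3.83%, 3.87% and 3.87% of all counts in the GFP-812 libraries, against 3.52%, 3.42% and 3.86% in the GFP libraries. The means were 3.86 ± 0.0211% in GFP-812 cells and 3.60 ± 0.228% in GFP cells (SD, n = 3 each). The 3 GFP-812 libraries were within a narrow range, and GFP replicate 3 lay inside it, so the groups overlapped. Pseudogene rows named after the 45 genes, which could receive reads of the parent gene, took 0.113%, 0.111% and 0.110% in the GFP-812 libraries and 0.1003%, 0.0978% and 0.108% in the GFP libraries.

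Gene by gene, 15 of the 45 rose in GFP-812 cells and 0 fell (edgeR's quasi-likelihood test, 2-sided, adjusted p under 0.05 after Benjamini-Hochberg adjustment over all 16834 genes). Over all genes tested 1.18% rose and 2.67% fell. DESeq2 called 16 of the 45 higher and 0 lower, against 2.19% higher and 6.17% lower of the genes it gave an adjusted p. Of the 15 genes called by edgeR, 12 were among these 16, and the calls of RPL11, RPL23A and RPLP2 ended (DESeq2 adjusted p = 0.147, 0.146 and 0.0525). At an unadjusted p under 0.05 edgeR had 38 of the 45 genes higher and 0 lower, against 7.24% higher and 8.9% lower of all genes tested. The median log2 fold change was 0.11, or 1.08-fold, against 0.0069 over all genes tested. All 45 fold changes lay above 0, from 0.023 for RPL17 to 0.19 for RPL35, but after quantile normalization 34 did and the median was 0.030. The 11 that turned below 0 were all among the genes that did not pass. Among the 3688 genes at least as abundant as the least abundant of the 45, 2.74% rose and 43.5% had a fold change above 0. The fold changes of the 45 genes had an SD of 0.035 log2 units, below the median SE of 0.039 of a single gene.

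The groups did not overlap for 15 of the 45 genes, all higher in GFP-812 cells, against 7.93% higher and 12.1% lower of all genes tested. These 15 are not the same as the 15 that rose: 11 genes met both conditions, RPL27A, RPL38, RPL39 and RPLP2 rose with overlapping groups, and RPL14, RPL15, RPL22 and RPL27 did not pass the test although their groups were apart. All 3 GFP-812 libraries exceeded GFP replicates 1 and 2 for 45 of the 45 genes, against 15.3% of all genes tested. GFP replicate 3, left out here, was the highest GFP library for all 45 genes but for 33.1% of all genes tested. These shares are therefore not a like comparison and give no support of their own. Without GFP replicate 3, 43 of the 45 genes passed the test and the median log2 fold change was 0.17, with 2.94% of all genes called higher in that fit. Without GFP replicate 2, 3 genes passed and the median was 0.075.

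**Figure D2:**
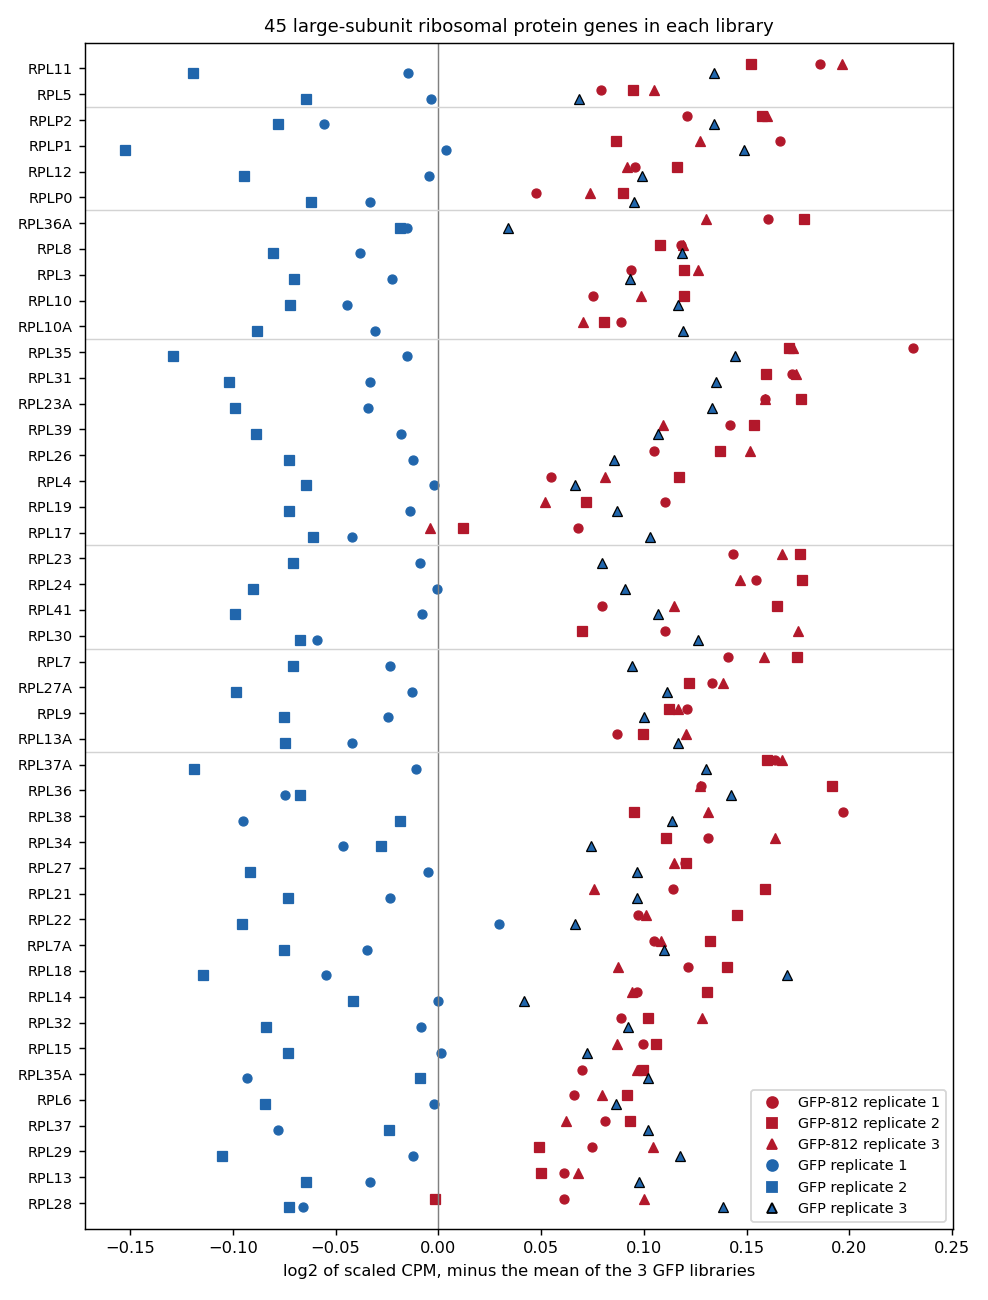
Level of each of the 45 genes in each library as log2 of scaled CPM minus the mean of the 3 GFP libraries (x axis), grouped by place in the subunit from the 5S RNP at the top to proteins not shared with bacteria at the bottom, GFP-812 in red above GFP in blue in each row. GFP replicate 3 (outlined triangle) is the highest GFP library in every row, and GFP replicates 1 and 2 lie left of all GFP-812 libraries on this scale (after quantile normalization 34 of the 45 fold changes were above 0).

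The 5S ribonucleoprotein is a small particle of 5S ribosomal RNA, RPL5 and RPL11 that docks on the growing subunit as a unit. RPL11 (ENSG00000142676, chr1:23691742-23696835, plus strand) had 336, 328 and 339.6 FPKM in the GFP-812 libraries, against 294, 276 and 327 FPKM in the GFP libraries. All GFP-812 libraries were above all GFP libraries, with the highest GFP library just below the lowest GFP-812 library, and the gene rose (edgeR log2 fold change 0.17, SE 0.040, adjusted p = 0.00437). RPL5 (ENSG00000122406, chr1:92832013-92841924, plus strand) had 475, 480.2 and 486 FPKM in the GFP-812 libraries, against 451, 436 and 477 FPKM in the GFP libraries. Its groups overlapped at GFP replicate 3 and it did not pass (edgeR log2 fold change 0.092, SE 0.034, adjusted p = 0.13). The call of RPL11 ended without GFP replicate 2 (adjusted p = 0.0748), and RPL5 passed without GFP replicate 3 (adjusted p = 0.00151). RPL5 did not pass in the other 5 fits that leave out a library (edgeR adjusted p of 0.234 to 0.385). The difference between the 2 partners was not tested.

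The P stalk recruits and activates the GTPases of translation, with RPLP0 as its stem, dimers of RPLP1 and RPLP2 as its flexible arms and RPL12 at its foot. Of these 4 genes RPLP2 rose. It had 174, 179 and 179.8 FPKM in the GFP-812 libraries, against 155, 154 and 178 FPKM in the GFP libraries (edgeR log2 fold change 0.14, SE 0.043, adjusted p = 0.046), with GFP replicate 3 between GFP-812 replicates 1 and 2. Its arm partner RPLP1 had 212, 200.5 and 207 FPKM in the GFP-812 libraries, against 190.3, 172 and 212 FPKM in the GFP libraries (edgeR log2 fold change 0.12, SE 0.043, adjusted p = 0.104), and GFP replicate 3 was close to its highest GFP-812 library. RPLP0, the stem, had 327, 337 and 335 FPKM in the GFP-812 libraries, against 311, 308 and 342 FPKM in the GFP libraries (edgeR log2 fold change 0.069, SE 0.036, adjusted p = 0.338). In RPLP0 the highest of the 6 libraries was GFP replicate 3, above all GFP-812 libraries. RPL12 had 381, 387 and 382 FPKM in the GFP-812 libraries, against 358, 339 and 386 FPKM in the GFP libraries (edgeR log2 fold change 0.10, SE 0.037, adjusted p = 0.136), and its highest GFP library again lay inside the GFP-812 range. RPLP2 kept its call in 1 of the 6 fits that leave out a library, the one without GFP replicate 3, and its adjusted p ran from 0.0819 to 0.283 in the other 5. Without GFP replicate 3 the remaining stalk genes passed too, at adjusted p = 2.1e-05 for RPLP1, 0.000516 for RPL12 and 0.0048 for RPLP0. They passed in none of the other 5 fits, where edgeR adjusted p ran from 0.205 for RPLP1 to 0.681 for RPLP0.

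Among the proteins that touch transfer RNA, RPL36A rose and the other 4 did not pass. RPL36A (ENSG00000241343, chrX:101390824-101396155, plus strand), whose protein lines the exit site for spent transfer RNA, had 74.3, 75.2 and 73.1 FPKM in the GFP-812 libraries, against 66.2, 66.7 and 68.9 FPKM in the GFP libraries. The groups were apart, GFP replicate 3 included, and the fold change was among the higher ones (edgeR log2 fold change 0.16, SE 0.040, adjusted p = 0.0125). The call ended without GFP-812 replicate 1 (adjusted p = 0.0702) and without GFP-812 replicate 2 (adjusted p = 0.13). It also ended without GFP replicate 1 (adjusted p = 0.0786). RPL36A overlaps GLA, the lysosomal enzyme alpha-galactosidase A, in the table, and GLA held 137% as many counts as RPL36A and rose as well (edgeR, log2 fold change 0.17 at an adjusted p of 0.00797). Whether the counting used strand is not given in the sources used here, so reads of the 2 genes may be shared or left uncounted.

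RPL3 and RPL8 reach toward the peptidyl transferase centre, where peptide bonds form. RPL3 had 365, 372 and 375 FPKM in the GFP-812 libraries, against 339, 331 and 369 FPKM in the GFP libraries (edgeR log2 fold change 0.11, SE 0.035, adjusted p = 0.0587). RPL8 averaged 569.9 ± 3.39 FPKM in GFP-812 cells and 532 ± 39.3 FPKM in GFP cells (SD, n = 3 each; edgeR log2 fold change 0.11, SE 0.037, adjusted p = 0.0782). In both genes GFP replicate 3 was inside or above the GFP-812 range. RPL10 joins last, beside the transfer RNA sites, and its arrival licenses the subunit for translation. It had 253, 261 and 258 FPKM in the GFP-812 libraries, against 234, 232 and 263 FPKM in the GFP libraries (edgeR log2 fold change 0.10, SE 0.037, adjusted p = 0.154), with GFP replicate 3 the highest of all 6 libraries. RPL10A, the protein of the mobile L1 stalk that guides spent transfer RNA out, averaged 415 ± 1.76 FPKM in GFP-812 cells and 397 ± 29.7 FPKM in GFP cells (SD, n = 3 each; edgeR log2 fold change 0.077, SE 0.039, adjusted p = 0.322). Each of these 4 passed without GFP replicate 3, at adjusted p = 1.5e-05 for RPL8, 4.0e-05 for RPL3, 0.000135 for RPL10 and 0.00263 for RPL10A. None passed in the other 5 fits that leave out a library. There the edgeR adjusted p ran from 0.12 for RPL3 to 0.756 for RPL10A.

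The exit tunnel, through which the new protein leaves, had the largest share of risen genes, 5 of 8, with a median log2 fold change of 0.13. That share was not tested against the other groups. RPL35 (ENSG00000136942, chr9:124857880-124861981, minus strand), at the tunnel's mouth and a Diamond-Blackfan anaemia gene, had the highest fold change of the 45 genes. It had 270.1, 259 and 260.5 FPKM in the GFP-812 libraries, against 229, 214 and 257 FPKM in the GFP libraries (edgeR log2 fold change 0.19, SE 0.044, adjusted p = 0.00536). RPL23A (ENSG00000198242, chr17:28719985-28724359, plus strand), the docking site of the signal recognition particle, had 517, 523 and 519 FPKM in the GFP-812 libraries, against 455, 439 and 513 FPKM in the GFP libraries (edgeR log2 fold change 0.16, SE 0.039, adjusted p = 0.00711). RPL31 (ENSG00000071082, chr2:101002229-101024032, plus strand), on the rim of the exit, had 121, 119.7 and 121 FPKM in the GFP-812 libraries, against 105, 101 and 119 FPKM in the GFP libraries (edgeR log2 fold change 0.17, SE 0.040, adjusted p = 0.00894). In these 3 genes the lowest GFP-812 library was above GFP replicate 3 by a small margin, and above GFP replicates 1 and 2 by a wide one.

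RPL26 sits at the same rim and is the main protein of the subunit to receive the ubiquitin-like modifier UFM1. It had 239, 244 and 248 FPKM in the GFP-812 libraries, against 221, 214 and 238 FPKM in the GFP libraries (edgeR log2 fold change 0.13, SE 0.038, adjusted p = 0.0384), with the lowest GFP-812 and the highest GFP library next to each other. RPL39, a very short protein in the tunnel's lower wall, had 497, 501 and 488 FPKM in the GFP-812 libraries, against 447, 429.9 and 490.5 FPKM in the GFP libraries (edgeR log2 fold change 0.13, SE 0.037, adjusted p = 0.0297). Here GFP replicate 3 exceeded GFP-812 replicate 3. RPL4 and RPL17 send loops into the narrowest part of the tunnel and neither passed. RPL4 had 429, 449 and 439 FPKM in the GFP-812 libraries, against 415, 401 and 438 FPKM in the GFP libraries (edgeR log2 fold change 0.084, SE 0.034, adjusted p = 0.173), again with GFP replicate 3 inside the GFP-812 range.

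RPL17 (ENSG00000265681, chr18:49488453-49492508, minus strand) had the lowest FPKM of the 45 genes on the table's exonic size, and the largest p. It had 27.7, 26.7 and 26.5 FPKM in the GFP-812 libraries, against 25.8, 25.7 and 28.7 FPKM in the GFP libraries (edgeR log2 fold change 0.023, SE 0.059, adjusted p = 0.899), with GFP replicate 3 highest of all. Its log2 fold change was -0.00237 with GFP-812 replicate 1 left out and -0.00879 with GFP replicate 2 left out, and it did not pass without GFP replicate 3 (adjusted p = 0.555). A readthrough row, RPL17-C18orf32, overlaps it and held 65 counts in all. How reads that fall in both rows were counted was not examined, so that count does not measure the effect of the overlap on RPL17. RPL19, at the exit and reaching to the small subunit, averaged 259.5 ± 4.91 FPKM in GFP-812 cells and 248 ± 13.8 FPKM in GFP cells (SD, n = 3 each; edgeR log2 fold change 0.077, SE 0.037, adjusted p = 0.283).

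The calls of the tunnel genes depended on single libraries. RPL35 lost its call without GFP replicate 2 (adjusted p = 0.0983). RPL23A lost it without either of GFP replicates 1 and 2 or without GFP-812 replicate 2, at adjusted p of 0.0727 to 0.0984. RPL31 lost it when GFP replicate 1 or 2 or GFP-812 replicate 2 or 3 was left out, at 0.0566 to 0.102. RPL26 and RPL39 kept it in 1 of the 6 fits, the one without GFP replicate 3. In the other 5 fits their adjusted p ran from 0.0775 to 0.192 and from 0.0705 to 0.207. RPL4 and RPL19 passed without GFP replicate 3, at adjusted p = 0.00267 and 0.00666. They did not pass in the other 5 fits (edgeR adjusted p of 0.223 to 0.517 and of 0.355 to 0.659).

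**Figure D3:**
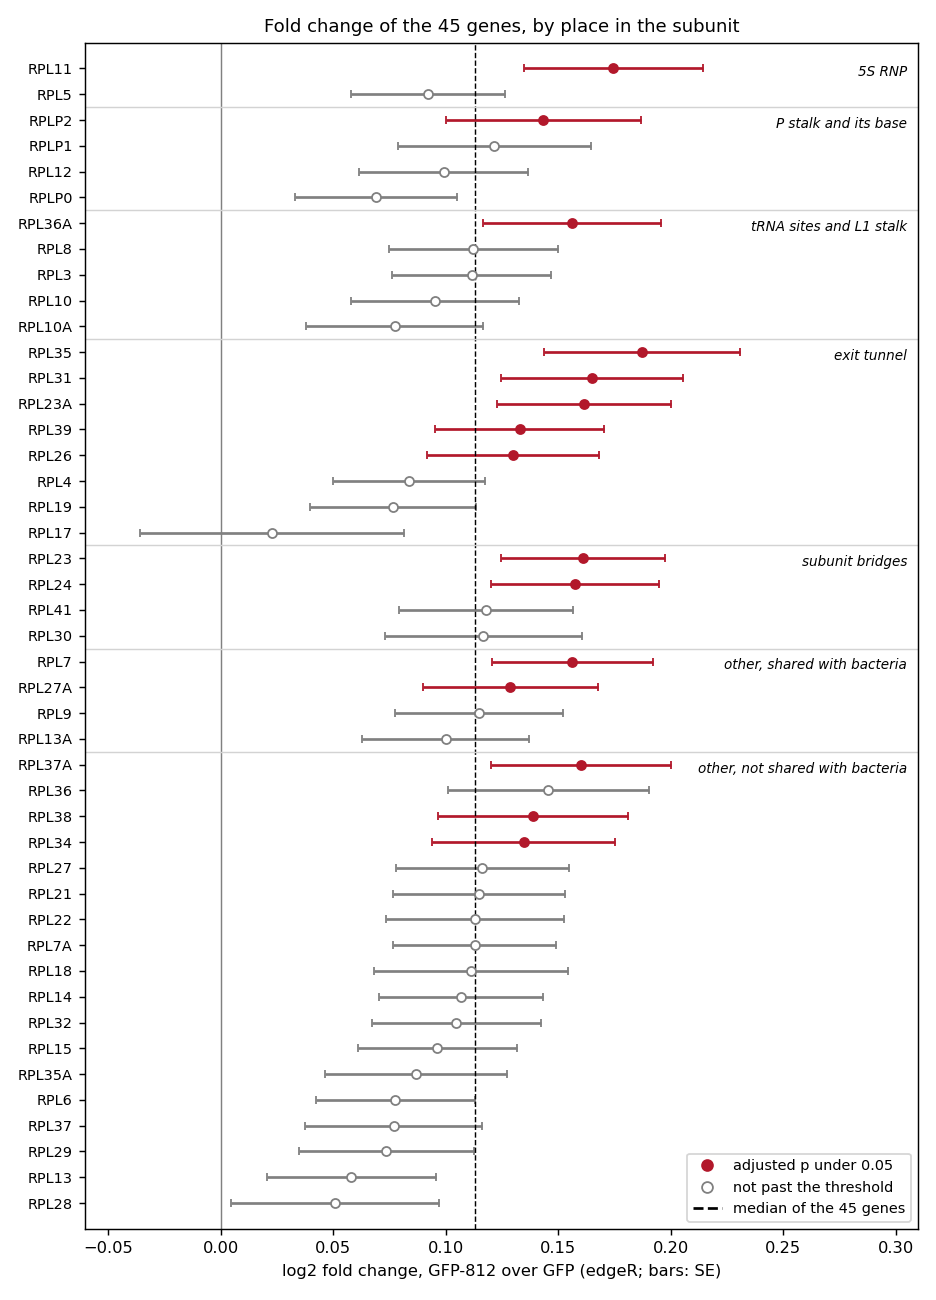
Log2 fold change of GFP-812 over GFP for each of the 45 genes (x axis, edgeR, bars show SE), grouped by place in the subunit and ordered by size within a group, with filled red points for the 15 genes past an adjusted p of 0.05 and a dashed line at the median of 0.11. All points lie right of 0, from 0.023 for RPL17 to 0.19 for RPL35, although 34 of the 45 did after quantile normalization.

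At the face that meets the small subunit, 2 of 4 bridge genes rose. RPL23 (ENSG00000125691, chr17:38847860-38853764, minus strand) had the smallest p of the 45 genes, with 148, 152 and 151 FPKM in the GFP-812 libraries, against 134, 129.8 and 144 FPKM in the GFP libraries (edgeR log2 fold change 0.16, SE 0.037, adjusted p = 0.0041). RPL24 (ENSG00000114391, chr3:101681091-101686718, minus strand), whose long arm reaches into the small subunit, had 336, 341 and 335 FPKM in the GFP-812 libraries, against 303, 287 and 325 FPKM in the GFP libraries (edgeR log2 fold change 0.16, SE 0.037, adjusted p = 0.00634). In both genes every GFP-812 library was above every GFP library. RPL41, a peptide of the bridge that is the shortest ribosomal protein, had the highest FPKM of the 45 genes on the table's exonic size. It had 731, 776 and 752.7 FPKM in the GFP-812 libraries, against 692, 656 and 753.5 FPKM in the GFP libraries (edgeR log2 fold change 0.12, SE 0.039, adjusted p = 0.0739), with GFP replicate 3 above 2 of the GFP-812 libraries. RPL30 had 70.2, 68.2 and 73.8 FPKM in the GFP-812 libraries, against 62.7, 63.0 and 71.8 FPKM in the GFP libraries (edgeR log2 fold change 0.12, SE 0.044, adjusted p = 0.131), and GFP replicate 3 lay inside its GFP-812 range. RPL23 lost its call without GFP-812 replicate 2 (adjusted p = 0.0737), and RPL24 lost it without the same library (adjusted p = 0.0987) and without GFP replicate 2 (adjusted p = 0.0661). RPL41 and RPL30 passed without GFP replicate 3, at adjusted p = 8.3e-05 and 0.000732. Neither passed in the other 5 fits that leave out a library (edgeR adjusted p of 0.09 to 0.39 and of 0.206 to 0.473).

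Of the 4 remaining proteins that bacteria share, RPL7 and RPL27A rose. RPL7 (ENSG00000147604, chr8:73290242-73295789, minus strand) had 581, 595 and 591 FPKM in the GFP-812 libraries, against 521, 509 and 569 FPKM in the GFP libraries (edgeR log2 fold change 0.16, SE 0.036, adjusted p = 0.00421), and its groups were apart. RPL27A had 107, 106 and 108 FPKM in the GFP-812 libraries, against 97.2, 92.5 and 107 FPKM in the GFP libraries (edgeR log2 fold change 0.13, SE 0.039, adjusted p = 0.046), with GFP replicate 3 above GFP-812 replicate 2. RPL7 had by far the most pseudogene counts, equal to 19.1% of its own, and summing each gene with its pseudogene rows left 15 of the 15 calls in place and gave 17 in all. RPL13A, which leaves the ribosome to silence inflammatory mRNAs in interferon-treated monocytes, had 405, 409 and 417 FPKM in the GFP-812 libraries, against 373, 368 and 418 FPKM in the GFP libraries (edgeR log2 fold change 0.10, SE 0.037, adjusted p = 0.127), with GFP replicate 3 highest. RPL9, near the factor-binding site, averaged 179 ± 0.720 FPKM in GFP-812 cells and 167 ± 10.5 FPKM in GFP cells (SD, n = 3 each; edgeR log2 fold change 0.11, SE 0.037, adjusted p = 0.0682). GFP replicate 3 lay inside the GFP-812 range of RPL9. RPL7 lost its call without GFP-812 replicate 2 (adjusted p = 0.0783), RPL27A held it without GFP replicate 3 alone and had adjusted p of 0.136 to 0.281 in the other 5 fits. RPL13A and RPL9 passed without GFP replicate 3, at adjusted p = 6.2e-05 and 8.3e-05. Neither passed in the other 5 fits (edgeR adjusted p of 0.209 to 0.434 and of 0.193 to 0.29).

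The last 18 proteins have no bacterial counterpart and form much of the subunit's outer shell. Of these, 3 rose and 15 did not pass, with a median log2 fold change of 0.11. RPL37A (ENSG00000197756, chr2:216498825-216579180, plus strand), a zinc-finger protein, had 129.6, 129 and 130.4 FPKM in the GFP-812 libraries, against 115, 108 and 128 FPKM in the GFP libraries (edgeR log2 fold change 0.16, SE 0.040, adjusted p = 0.0106). RPL38, which in mouse is needed for translation of a subset of Hox mRNAs, had 101, 93.8 and 96.6 FPKM in the GFP-812 libraries, against 82.7, 88.0 and 96.1 FPKM in the GFP libraries (edgeR log2 fold change 0.14, SE 0.042, adjusted p = 0.0471). RPL34 averaged 82.6 ± 1.74 FPKM in GFP-812 cells and 76.0 ± 3.56 FPKM in GFP cells (SD, n = 3 each; edgeR log2 fold change 0.13, SE 0.041, adjusted p = 0.046). The groups were apart in RPL37A and RPL34, while in RPL38 GFP replicate 3 was above GFP-812 replicate 2. RPL37A lost its call when any of the same 4 libraries as for RPL31 was left out, at adjusted p of 0.06 to 0.132. RPL34 and RPL38 kept theirs without GFP replicate 3 alone, with adjusted p of 0.12 to 0.27 and 0.109 to 0.388 in the other 5 fits.

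Several shell genes lie over another gene of the table. RPL36 had 109.8, 115 and 110.2 FPKM in the GFP-812 libraries, against 95.9, 97.3 and 112 FPKM in the GFP libraries (edgeR log2 fold change 0.15, SE 0.045, adjusted p = 0.0503), just short of the threshold, and it overlaps LONP1, a mitochondrial protease whose counts were 40.5% of those of RPL36 and whose log2 fold change was 0.14 (edgeR adjusted p = 0.108). RPL28 had 33.0, 31.6 and 34.0 FPKM in the GFP-812 libraries, against 30.4, 30.5 and 35.2 FPKM in the GFP libraries (edgeR log2 fold change 0.051, SE 0.046, adjusted p = 0.635), and its neighbour UBE2S, a ubiquitin-conjugating enzyme of mitosis, held 61.6% as many counts with a log2 fold change of -0.11 (edgeR adjusted p = 0.185). The range of RPL28 in the GFP libraries enclosed its range in the GFP-812 libraries. RPL6 had 374, 380.2 and 379 FPKM in the GFP-812 libraries, against 358, 342 and 383 FPKM in the GFP libraries (edgeR log2 fold change 0.078, SE 0.035, adjusted p = 0.249), with GFP replicate 3 highest, and PTPN11, a phosphatase of growth factor signalling, held 33.6% as many counts. Apart from these 3 genes and RPL36A, described above with GLA, the partners held at most 6.04% as many counts, the share of ZWILCH over RPL4. The 21 genes with an overlap had a median log2 fold change of 0.11 and 8 risen genes, and the 24 without one had 0.11 and 7.

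Among the smaller overlaps, RPL15, a Diamond-Blackfan gene, had 189, 189 and 188 FPKM in the GFP-812 libraries, against 177, 169.7 and 187 FPKM in the GFP libraries (edgeR log2 fold change 0.10, SE 0.035, adjusted p = 0.12). RPL22, which binds a small viral RNA in cells infected with Epstein-Barr virus, had 91.7, 94.8 and 92.3 FPKM in the GFP-812 libraries, against 87.9, 81.4 and 90.7 FPKM in the GFP libraries (edgeR log2 fold change 0.11, SE 0.040, adjusted p = 0.102). Both had groups apart with no call. RPL32 had 215, 217 and 222 FPKM in the GFP-812 libraries, against 202, 194 and 218 FPKM in the GFP libraries (edgeR log2 fold change 0.10, SE 0.037, adjusted p = 0.11). RPL35A, another Diamond-Blackfan gene, had 135, 138 and 139 FPKM in the GFP-812 libraries, against 122, 130.2 and 140.0 FPKM in the GFP libraries (edgeR log2 fold change 0.087, SE 0.041, adjusted p = 0.266). In RPL32 GFP replicate 3 lay inside the GFP-812 range, and in RPL35A it lay above it.

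RPL13 and RPL29 had 2 of the 4 largest p-values. RPL13, mutated in a skeletal dysplasia, had 187, 186 and 189 FPKM in the GFP-812 libraries, against 176, 174 and 194 FPKM in the GFP libraries (edgeR log2 fold change 0.058, SE 0.038, adjusted p = 0.462). RPL29, also described as a heparin-binding protein, had 438, 430.5 and 449 FPKM in the GFP-812 libraries, against 415, 393 and 456 FPKM in the GFP libraries (edgeR log2 fold change 0.074, SE 0.039, adjusted p = 0.343). GFP replicate 3 was the highest library in both genes. The other 6 shell genes, RPL7A, RPL14, RPL18, RPL21, RPL27 and RPL37, had mean levels between 59.9 FPKM for RPL37 and 720 FPKM for RPL7A in GFP-812 cells and log2 fold changes of 0.077 for RPL37 to 0.12 for RPL27. RPL27, a Diamond-Blackfan gene, was nearly constant in GFP-812 cells, at 312 ± 0.0800 FPKM in GFP-812 cells and 291 ± 18.6 FPKM in GFP cells (SD, n = 3 each; edgeR log2 fold change 0.12, SE 0.039, adjusted p = 0.0768). RPL18, from the same disease list, had the largest SD relative to its mean of the 6 in GFP cells, at 151 ± 2.44 FPKM in GFP-812 cells and 141 ± 14.9 FPKM in GFP cells (SD, n = 3 each; edgeR log2 fold change 0.11, SE 0.043, adjusted p = 0.148). Of the 15 shell genes without a call, 14 passed without GFP replicate 3, at adjusted p from 1.0e-05 for RPL18 to 0.0222 for RPL13, and RPL28 did not (adjusted p = 0.0551). None of the 15 passed in the other 5 fits that leave out a library. There the edgeR adjusted p ran from 0.0938 for RPL36 to 0.938 for RPL28.

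Levels within the set were uneven. The mean over all 6 libraries ran from 26.9 FPKM for RPL17 to 727 FPKM for RPL41, with a median of 234 FPKM and an interquartile range of 115 to 372 FPKM. The exonic size in the table, the union over all annotated transcripts, was 1108 to 8626 bases with a median of 3591 bases, while the median principal transcript of the 45 genes was 750 bases. FPKM on the union size is lower than on a single transcript's length, by amounts that differ between genes, and the order of levels changes with it. With each count divided by the principal transcript's length instead, RPL39 was highest at 2524 FPKM and RPL41 had 1717 FPKM. RPL37 was lowest at 61.3 FPKM and RPL17 came next at 98.4 FPKM. The principal transcript of RPL37 was 7686 bases, the longest of the set, so its low value depends on that choice of transcript. For RPL17 it was 669 bases. The order does not touch the comparison between groups, which uses the same size in every library.

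Across the 45 genes, log2 fold change had a Pearson correlation of -0.16 with exonic size, -0.022 with GC content, 0.14 with mean FPKM and -0.15 with the share of pseudogene counts, and the Spearman values were -0.17, -0.090, -0.028 and -0.15. Genes are not independent replicates and all 45 share the same libraries, so these weak correlations only describe the set. The 9 Diamond-Blackfan genes, mutated in an inherited failure of red cell production, had a median log2 fold change of 0.12 with 4 risen, and the other 36 had 0.11 with 11 risen. The 18 proteins shared with bacteria had 0.11 with 7 risen, and the other 27 had 0.11 with 8. The 18 genes with a small nucleolar RNA row inside them had 0.11 with 5 risen, and the other 27 had 0.12 with 10. The 45 genes are spread over 18 chromosomes.

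**Figure D4:**
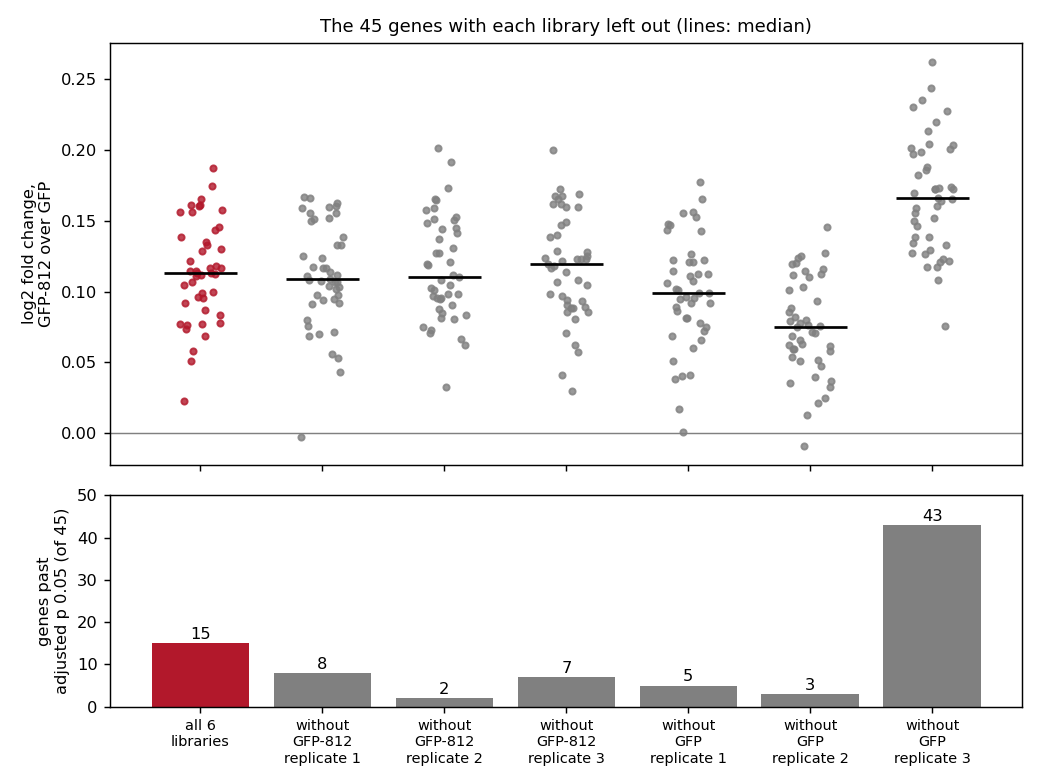
Log2 fold change of GFP-812 over GFP of the 45 genes (upper panel, y axis, 1 point per gene, line at the median) and number of them past an adjusted p of 0.05 (lower panel, y axis) with all 6 libraries and with each library left out (x axis). The number past the threshold is 15 with all libraries, 2 to 8 in 5 of the fits and 43 without GFP replicate 3; RPL17 lies below 0 in 2 fits, and after quantile normalization of all 6 libraries 34 genes lay above 0.

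No gene was called in all 6 fits that leave out a library, and RPL17 and RPL28 were called in none. RPL7, RPL11, RPL23 and RPL35 were called in 5 of the 6. The number called was 8, 2 and 7 without GFP-812 replicates 1, 2 and 3 and 5, 3 and 43 without GFP replicates 1, 2 and 3, with 0.789%, 0.359%, 0.487%, 0.449%, 0.63% and 2.94% of all genes called higher in the same fits. The median log2 fold change stayed between 0.075 and 0.17 in these fits.

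Genes of the small subunit had a median near that of the large subunit. Of 32 small-subunit protein genes 9 rose and 0 fell, with a median log2 fold change of 0.11, or 0.044 after quantile normalization. Over all genes tested 1.18% rose and 2.67% fell. At an unadjusted p under 0.05, edgeR had 27 higher and 0 lower, against 7.24% and 8.9% of all genes. DESeq2 called 8 higher and 0 lower, against 2.19% and 6.17% of the genes it gave an adjusted p. Their share of all counts was 2.46%, 2.48% and 2.48% in the GFP-812 libraries and 2.27%, 2.19% and 2.48% in the GFP libraries. RPS25, needed by some viral internal ribosome entry sites, had 394, 392 and 392 FPKM in the GFP-812 libraries, against 345, 339.6 and 379 FPKM in the GFP libraries (log2 fold change 0.16 ± 0.038 (SE) at an edgeR adjusted p of 0.00731). RPS24, a Diamond-Blackfan gene, had 164, 166 and 164 FPKM in the GFP-812 libraries, against 149, 144 and 159 FPKM in the GFP libraries (log2 fold change 0.14 ± 0.035 (SE) at an edgeR adjusted p of 0.0097). In both genes each GFP-812 library was above each GFP library. The number risen was 30 without GFP replicate 3 and 0 without GFP replicate 1 or 2, and 4, 1 and 2 without GFP-812 replicates 1, 2 and 3. Of all genes, 2.94% rose without GFP replicate 3, and 0.359% to 0.789% without each other library.

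Other TOP mRNAs, chiefly of translation factors, had a lower median. Of 17 tested 1 rose and 0 fell, against 1.18% and 2.67% of all genes. The median log2 fold change was 0.042, or 0.0036 after quantile normalization. At an unadjusted p under 0.05 edgeR had 7 higher and 0 lower, against 7.24% and 8.9% of all genes. DESeq2 called 2 higher and 0 lower, against 2.19% and 6.17% of the genes it gave an adjusted p. Without GFP replicate 3, 6 of the 17 were called higher, against 2.94% of all genes in that fit, and without any other single library 0 were.

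The 7 tested ribosomal protein paralogs had a median log2 fold change of 0.093, with 0 called by edgeR or DESeq2 and 1 higher and 0 lower at an unadjusted p under 0.05 in edgeR. Over all genes tested, edgeR called 1.18% higher and 2.67% lower, and had 7.24% and 8.9% at an unadjusted p under 0.05. DESeq2 called 2.19% higher and 6.17% lower of the genes it gave an adjusted p. For the mitochondrial large subunit, which has its own proteins, 48 genes had a median of 0.038 with 34 above 0. EdgeR and DESeq2 called 0 of the 48, and edgeR had 4 higher and 3 lower at an unadjusted p under 0.05, against 7.24% and 8.9% of all genes. Without GFP replicate 3, 3 were called higher, and without GFP-812 replicate 3 or GFP replicate 2, 1 was called lower. In these fits 2.94% of all genes were called higher, and 1.21% and 1.76% lower. Their share of counts was 0.287%, 0.285% and 0.281% in the GFP-812 libraries and 0.284%, 0.269% and 0.287% in the GFP libraries. The 13 mitochondrially encoded mRNAs had a median of -0.019, or 0 after quantile normalization, with 0 called by edgeR, 1 lower and 0 higher by DESeq2, and 1 in each direction at an unadjusted p under 0.05 in edgeR. With GFP-812 replicate 1 left out, edgeR called 1 of the 13 lower, against 1.97% of all genes. With GFP replicate 2 left out, it called 2 higher and 1 lower, against 0.63% and 1.76% of all genes. With GFP replicate 3 left out, it called 2 lower, against 4.69% of all genes. The 13 mRNAs took 3.48%, 3.34% and 3.28% of the GFP-812 libraries and 3.51%, 3.45% and 3.36% of the GFP libraries.

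**Figure D5:**
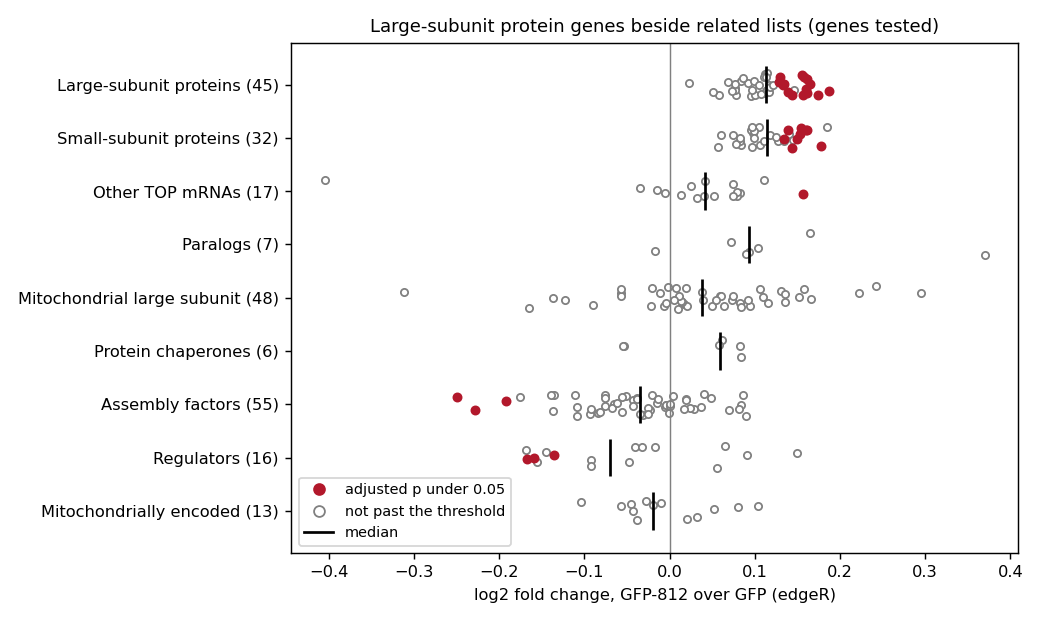
Log2 fold change of GFP-812 over GFP (x axis, edgeR) of the 45 large-subunit genes and of related lists, with 1 point per gene, filled red points past an adjusted p of 0.05 and a line at each median. The medians are 0.11 for the large and for the small subunit (0.030 and 0.044 after quantile normalization), 0.042 for other TOP mRNAs, -0.034 for assembly factors and -0.070 for regulators.

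The factors that build the large subunit had a median below 0. Of 55 assembly factors 0 rose and 3 fell, with a median log2 fold change of -0.034, against 1.18% higher and 2.67% lower of all genes tested. At an unadjusted p under 0.05 edgeR had 0 higher and 7 lower, against 7.24% and 8.9% of all genes, and DESeq2 called 0 higher and 3 lower, against 2.19% and 6.17%. NVL, an ATPase that strips a helicase and other factors from early particles, had 21.5, 21.6 and 21.4 FPKM in the GFP-812 libraries, against 27.3, 25.8 and 24.1 FPKM in the GFP libraries (log2 fold change -0.25 ± 0.051 (SE) at an edgeR adjusted p of 0.00115). NOL8, a nucleolar protein, had 15.1, 14.8 and 14.4 FPKM in the GFP-812 libraries, against 18.3, 18.01 and 16.1 FPKM in the GFP libraries (log2 fold change -0.23 ± 0.049 (SE) at an edgeR adjusted p of 0.00209). In both genes each GFP-812 library was below each GFP library. Both stayed past the threshold in each fit that leaves out a library, with a highest adjusted p of 0.043 for NVL and 0.0492 for NOL8, and 2 to 4 of the 55 fell in these fits, in which 0.851% to 4.69% of all genes fell. The 6 dedicated chaperones of single ribosomal proteins had a median of 0.060, with 0 called by edgeR or DESeq2 and 1 higher at an unadjusted p under 0.05 in edgeR. Without GFP replicate 3, 2 of the 6 were called higher, against 2.94% of all genes in that fit.

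Of 16 regulators of these genes and of TOP mRNAs, 0 rose and 3 fell, with a median log2 fold change of -0.070, against 2.67% lower of all genes tested. RPS6KB1, the kinase downstream of mTOR that phosphorylates RPS6, had 16.4, 16.1 and 16.5 FPKM in the GFP-812 libraries, against 18.9, 19.2 and 17.3 FPKM in the GFP libraries (log2 fold change -0.17 ± 0.047 (SE) at an edgeR adjusted p of 0.0306). LARP4, which protects poly(A) tails, had 32.4, 32.8 and 32.6 FPKM in the GFP-812 libraries, against 36.8, 36.7 and 34.9 FPKM in the GFP libraries (log2 fold change -0.14 ± 0.040 (SE) at an edgeR adjusted p of 0.0376). In these genes too each GFP-812 library was below each GFP library. DESeq2 called 0 higher and 2 lower, against 6.17% lower of all genes, and edgeR had 2 higher and 5 lower at an unadjusted p under 0.05, against 7.24% and 8.9%. No regulator fell without GFP-812 replicate 2 or 3 or GFP replicate 1 or 2, 1 fell without GFP-812 replicate 1, and 4 fell and 1 rose without GFP replicate 3. Of all genes, 1.97% fell without GFP-812 replicate 1, and 4.69% fell and 2.94% rose without GFP replicate 3. The 4 genes of the checkpoint that senses free RPL5 and RPL11 had a median of -0.015, with 0 called by edgeR or DESeq2 and 0 at an unadjusted p under 0.05 in edgeR, and 1 was called lower without GFP replicate 3.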

How the data were processed

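Poly(A) RNA of 6 libraries of 293T cells was sequenced, 3 per plasmid, and the titles give group and replicate. No label states that replicates were separate cultures, so p-values reflect variation among libraries that could be technical. HISAT2 2.2.1, HTSeq 0.6.1, cutadapt 1.9.1 and FastQC 0.10.1 are listed with build hg38, per the submitters' processing notes. Neither an annotation release nor a strand setting is stated in the sources used here. Reads of overlapping genes or of near-identical pseudogenes may therefore be split, shared or left uncounted. The authors deposited raw counts per gene, 14255148 to 17613814 per library. The same table gives the authors' FPKM, which equalled the count divided by exonic size and library total for 100% of values within 0.0051.

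EdgeR 4.0.16 in R 4.3.3 (TMM scaling after filterByExpr, a single group term, quasi-likelihood F test, 2-sided, Benjamini-Hochberg over 16834 genes, threshold 0.05) was fitted on the whole table, with SE taken from the F statistic, after a test on simulated data. Alternatives were other scalings, filters and gene sets, DESeq2 1.42.0, limma 3.58.1, a replicate block and fits without each library in turn. Correcting for exonic size and GC content, a fit on GENCODE 29 protein-coding genes and the list counts without each library were chosen after seeing the data. The 45 genes and the related lists were chosen with earlier results of these data known, so they are described by counts and medians and are not tested as sets. Values in every library are given for the 5S particle and the P stalk, RPL3, RPL10, RPL39, RPL41, the 8 smallest and 4 largest p-values, the highest and lowest level and every gene that overlaps another, and from each list the 2 smallest p-values past the threshold. The values of 1 gene that this rule took are left out here. Sequences and start sites are from RefSeq, and 7 of the 45 genes had none there.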

Additional observations from a re-analysis of the deposited data

How the results depend on the processing

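The main count of large-subunit genes called higher was 15, and it was 10 to 20 under median-of-ratios or total-count scaling, with NEK1 or the ribosomal protein genes left out of the scaling, with no filter or a mean FPKM of at least 1, with DESeq2, with pseudogene rows added, after GC content and exonic size correction and among protein-coding genes. In these fits 0.487% to 2.19% of all genes were called higher. Of the 15 calls, total-count scaling ended those of RPL26, RPL27A, RPL34, RPL38 and RPLP2, the correction for GC content and exonic size those of RPL26, RPL35, RPL38, RPL39 and RPLP2, leaving ribosomal protein genes out of the scaling those of RPL27A and RPL38, and no filter that of RPL34. Their adjusted p values in these fits were 0.0506 to 0.22. Upper-quartile scaling gave 24 large-subunit and 16 small-subunit genes, with 1.66% of all genes higher and 2.01% lower. Limma called 0 of either with pseudocounts of 1 and 0.1 and after quantile normalization, where it called 0.0178%, 0.0238% and 0.0178% of all genes higher. At an unadjusted p under 0.05 it had 16, 18 and 10 large-subunit and 12, 12 and 7 small-subunit genes higher, against 5.52%, 5.45% and 6.13% of all genes, and after quantile normalization 1 large-subunit gene, RPL6, lower, against 7.8%. The correction for GC content and exonic size, chosen after seeing the data, gave 4 small-subunit genes, against 9 as reported. Leaving out a library gave 2 to 43 large-subunit and 0 to 30 small-subunit genes. The median was 0.030 after quantile normalization, and RPL3 (-0.00333), RPL4 (-0.0521), RPL5 (-0.0529), RPL6 (-0.0477), RPL10A (-0.0271), RPL12 (-0.0168), RPL13 (-0.00905), RPL13A (-0.0119), RPL19 (-0.0244), RPL29 (-0.0465) and RPLP0 (-0.0530) then lay below 0; the cause was not tested. With single libraries left out, RPL17 ran from -0.00879 to 0.0757, and was -0.00237 where GFP-812 replicate 1 was left out. Among the scalings in edgeR, the median of all genes ran from -0.0058 with total counts to 0.022 with the upper quartile. The large-subunit median ran from 0.10 to 0.13 in the same fits. A median of all genes near 0 does not show which scaling suits the 45 genes.

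Deviations of same-numbered libraries had correlations of 0.032, -0.010 and 0.0061, and not every library correlated best with its own number. Correlations near 0 cannot exclude a shared day or batch, which no label gives. The fit with the replicate block called 22 of the 45 genes higher, with 1.58% of all genes higher and 3.04% lower. The planned restriction to protein-coding genes was tied to a gene type in the table and was not run in that form, and summing all rows of a symbol changed nothing because each symbol had 1 row. The median SE of a single gene was 0.039 log2 units, so a missing call does not show that a gene did not differ.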
